A study of Mus musculus with 6 samples.

Results

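Genes of epithelial junctions and adhesion were examined in induced regulatory T (iTreg) cells. They were Lsr, F11r, Cldn7, Ocln and Tjp1 of tight junctions, Cdh1 and Jup of adherens junctions and desmosomes, the adhesion molecule Epcam, and Mst1r, the receptor tyrosine kinase RON. The 9 genes were chosen by name among the 27376 gene names of a whole mouse genome array, and Lsr, F11r and Mst1r were selected on their values in the comparison described here, so that no test is given for these 3 genes. The other 6 were selected by their roles in the same structures, but with earlier results of these data known. All 11 probes that carry the name of a member were taken, of 41174 probes that were not controls.

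The cells came from 3 mice with a T-cell deletion of miR-31 (miR-31 fl/fl CD4Cre, called cKO) and 3 control mice, all 6 weeks old and on a C57BL/6 background. Naive CD4+ T cells were sorted from the spleen as CD4+CD25-Foxp3gfp-CD62Lhi cells and cultured for 4 days with IL-2 at 40 ng/ml and TGF-β1 at 5 ng/ml on anti-CD3 bound to the plate at 5 μg/ml, with anti-CD28 in solution at 2 μg/ml. These are the doses of the labels, and the study's methods state a lower IL-2 dose and name lymph nodes as a source of T cells beside the spleen. The study's methods give the controls as miR-31 fl/fl mice, which carry the floxed alleles without the Cre transgene, so that the deletion and the presence of Cre cannot be told apart. CD4Cre deletes in T cells from the stage of CD4 expression in the thymus onward, and the floxed allele was made in 129S6 embryonic stem cells and backcrossed to C57BL/6J. Each mouse gave 1 one-colour Agilent array of 45018 spots.

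The deleted RNA is a microRNA, which pairs through its seed (bases 2 to 8, in capitals) with messenger RNAs and lowers their translation or stability. Its mature sequence in RefSeq is shown because it is a product of the deleted locus.
mmu-miR-31-5p: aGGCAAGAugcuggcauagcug
No probe of the array is named for miR-31, so that the deletion was not checked on these arrays.

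Tight junctions seal the space between neighbouring epithelial cells with claudins, occludin and JAM proteins, which are held at the membrane by scaffold proteins such as ZO-1. Adherens junctions below them are built by E-cadherin and its catenins, and desmosomes tie the cells' keratin filaments together. T cells form no such epithelium, but they use several of the same molecules to meet other cells: JAM-A binds the integrin LFA-1, and E-cadherin binds the integrin CD103 on T cells that reside in epithelia.

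A value below is the log2 signal of a probe minus the 75th percentile of the log2 signal on the same array, so that 0 marks that percentile and -3 a signal 8-fold below it. The scanner software calls each spot well above background or not. The 22281 probes called so on 3 or more of the 6 arrays were tested. All 10 T cell markers and all 8 Treg markers examined were well above background on every array, as were 4 of 7 markers of CD8 T or NK cells. Foxp3, the transcription factor that defines Treg cells, had values of 3.16, 3.12 and 2.45 in the cKO arrays and 3.42, 3.42 and 3.76 in the control arrays. Foxp3 was thus lower in cKO without overlap, and most so in cKO replicate 3. The difference was -0.62 ± 0.22 (SE), with an unadjusted p of 0.0321 and an adjusted p of 0.192 in limma. The Treg marker Gpr83, named after its values were seen, differed by -2.0 ± 0.36, without overlap and with an adjusted p of 0.0897. Ctla4, named in the same way, was higher in cKO without overlap, by 0.94 ± 0.24 with an adjusted p of 0.135. Of all 8 Treg markers 4 were higher in cKO and 4 lower, with a median difference of -0.07.

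Lsr, F11r, Epcam and Cdh1 had higher signal on all cKO arrays than on any control array, Mst1r had lower signal on all cKO arrays, and Cldn7 overlapped. The remaining 3 genes, Tjp1, Ocln and Jup, had no tested probe. Of the 3 tested members that were not selected on their values, 2 were higher without overlap, beside 15.9% of all tested probes that were higher in cKO without overlap and 20.7% that were lower. None of the 3 had an adjusted p under 0.05 in limma, a threshold that 54 probes or 0.242% of those tested passed, and 2 of the 3 had an unadjusted p under 0.05, as had 23.0% of all tested probes. The 54 adjusted p-values all lay between 0.0444 and 0.0497, so that the count rests on values next to the threshold, and leaving out any 1 of the 6 arrays left at most 1 such probe.

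**Figure D1:**
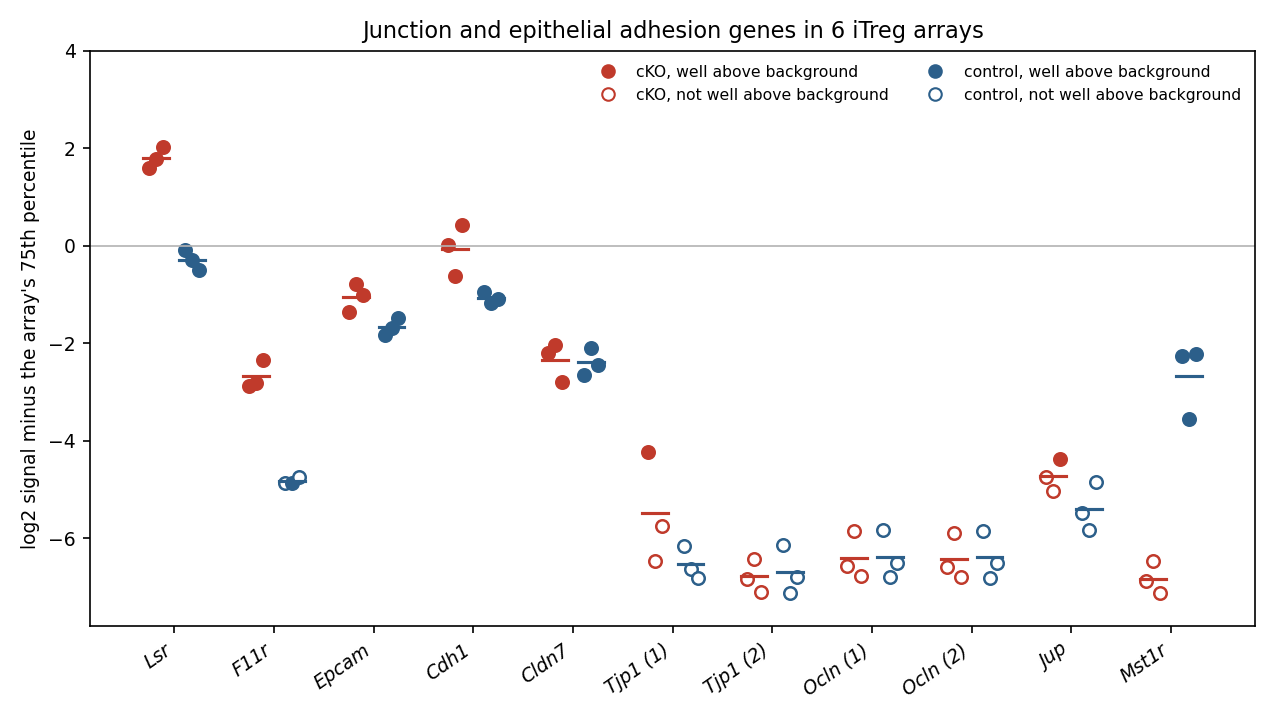
Log2 signal minus the 75th percentile of the array (y axis) for each of the 11 member probes (x axis) on 3 cKO and 3 control arrays, where each point is 1 array, bars are group means and open points are arrays on which the probe was not well above background. Lsr, F11r, Epcam and Cdh1 lie higher in cKO, Mst1r lies lower, Cldn7 overlaps, and Tjp1, Ocln and Jup lie mostly among the open points.

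Lsr encodes the lipolysis-stimulated lipoprotein receptor, also called angulin-1, which marks the corners where 3 epithelial cells meet and recruits tricellulin there. Its probe (A_51_P436839, NM_017405, mm9 chr7:31742874-31743020, minus strand) had values of 1.60, 1.77 and 2.02 in cKO replicates 1 to 3 and of -0.09, -0.29 and -0.50 in control replicates 1 to 3. Every cKO array stood above every control array, and the gap between the nearest arrays was 1.69. The group means were 1.80 ± 0.21 in cKO and -0.29 ± 0.21 in control (SD, n = 3 each), a difference of 2.09 on the log2 scale or 4.26-fold. The probe was well above background on all 6 arrays. Its ends lie 147 bases apart in the genome, which is longer than the 60 bases that most member probes span.

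F11r encodes JAM-A, an immunoglobulin-family protein of tight junctions that is also carried by leukocytes. Its probe (A_51_P458866, NM_172647, mm9 chr1:173393848-173393907, plus strand) gave -2.88, -2.81 and -2.33 in cKO and -4.87, -4.86 and -4.73 in control. The control values lay close together near the background: the probe was well above background on 3 of 3 cKO arrays and on 1 of 3 control arrays. The means were -2.67 ± 0.30 in cKO and -4.82 ± 0.08 in control (SD, n = 3 each). Their difference of 2.15 as measured includes control signal that was not well above background on 2 arrays. Another background correction (normexp with an offset of 50) took this difference to 1.43 with scaling to the 75th percentile and to 0.90 with quantile normalization, with the direction kept.

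Cldn7 encodes claudin-7, a strand-forming tight junction protein that also binds EpCAM at the lateral membrane. Its values were -2.20, -2.03 and -2.78 in cKO and -2.65, -2.09 and -2.43 in control (A_51_P165185, NM_016887, mm9 chr11:69780780-69781089, plus strand). The groups overlapped, and the difference of 0.05 ± 0.24 (SE) had a 95% interval from -0.53 to 0.64, with an adjusted p of 0.902 in limma. The probe was well above background on all 6 arrays.

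Ocln, which encodes occludin, was not well above background on any array at either probe (A_51_P486150, mm9 chr13:101268114-101268173, and A_52_P608097, chr13:101309849-101311042, both minus strand). Its values ranged from -6.79 to -5.83 at the first probe and gave no fold. Tjp1, which encodes the scaffold protein ZO-1, was well above background on 1 cKO array at one probe (A_52_P60338, mm9 chr7:72458154-72458213, minus strand) and on none at the other (A_51_P390739, chr7:72441703-72441762). At the first probe the values were -4.23, -6.45 and -5.75 in cKO and -6.15, -6.62 and -6.82 in control. The array well above background was cKO replicate 1, and the groups overlapped, so that no fold is given.

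Cdh1 encodes E-cadherin, the adhesion molecule of adherens junctions, and its probe (A_51_P137336, NM_009864, mm9 chr8:109193812-109193871, plus strand) was printed 10 times on each array. The spot averages were 0.01, -0.63 and 0.43 in cKO and -0.94, -1.18 and -1.10 in control. The lowest cKO array, replicate 2, lay 0.31 above the highest control array. The means of -0.06 ± 0.53 and -1.07 ± 0.12 (SD, n = 3 each) differed by 1.01 ± 0.27 (SE), with a 95% interval from 0.36 to 1.66 and an adjusted p of 0.142 in limma. The cKO arrays spread more widely than the controls, and the difference between groups did not pass the threshold.

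The 10 spots show the printing and reading error within an array. The SD among spots was 0.08, 0.26 and 0.06 in cKO replicates 1 to 3 and 0.11, 0.05 and 0.03 in control replicates 1 to 3. Replicate 2 of cKO, which had the lowest mean of its group, also had the widest spots, from -1.33 to -0.39, and these overlap with the spots of the control arrays. On the other 2 cKO arrays the lowest spots, at -0.06 and 0.36, lay above the highest control spot, at -0.65.

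**Figure D2:**
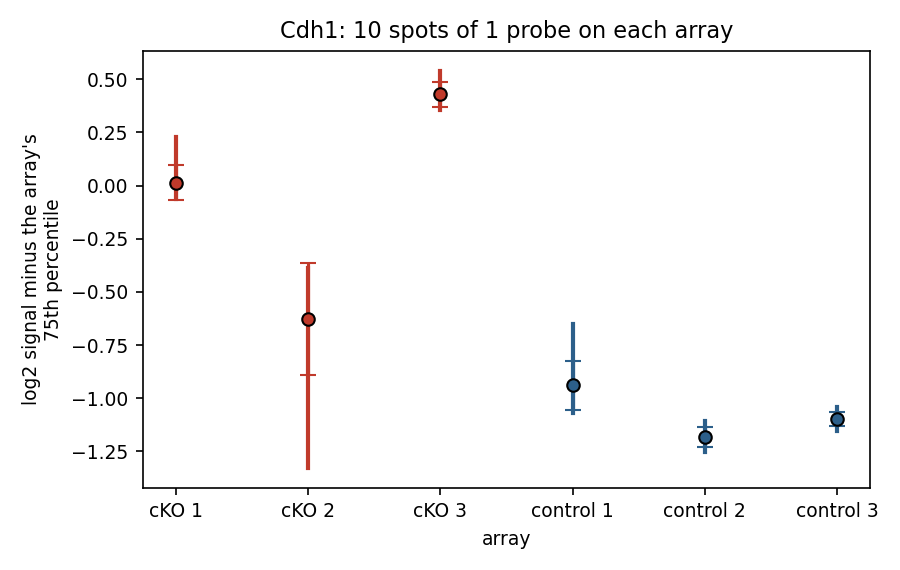
Signal of Cdh1 (y axis, log2 minus the 75th percentile of the array) at the 10 spots of its probe on each of the 6 arrays (x axis), where points are means, bars with caps are SDs and thick lines run from the lowest to the highest spot. The spots of cKO replicate 2, from -1.33 to -0.39, overlap with those of the controls, whereas the spots of the other cKO arrays do not.

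Jup encodes plakoglobin, a catenin shared by adherens junctions and desmosomes. Its values were -4.75, -5.02 and -4.36 in cKO and -5.48, -5.84 and -4.85 in control (A_52_P401386, mm9 chr11:100232695-100232754, minus strand). It was well above background on 1 cKO array and on no control array, and the groups overlapped.

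Epcam encodes the epithelial cell adhesion molecule, a transmembrane glycoprotein of most epithelia that is also found on some leukocytes. Its values were -1.35, -0.78 and -1.0 in cKO and -1.82, -1.68 and -1.47 in control (A_52_P447944, NM_008532, mm9 chr17:88048972-88049800, plus strand). The groups did not overlap, with a gap of 0.12 between cKO replicate 1 and control replicate 3. The means of -1.05 ± 0.29 and -1.66 ± 0.17 (SD, n = 3 each) differed by 0.61 ± 0.18 (SE), with a 95% interval from 0.17 to 1.05 and an adjusted p of 0.156 in limma. With arrays weighted by their quality the difference was 0.77 and its adjusted p 0.0386, in a fit that called 2205 probes.

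Mst1r encodes RON, a receptor tyrosine kinase of epithelial cells and macrophages whose ligand is macrophage-stimulating protein. Its values were -6.88, -6.46 and -7.12 in cKO and -2.26, -3.56 and -2.21 in control (A_51_P110672, NM_009074, mm9 chr9:107822566-107822625, plus strand). As processed signals, these were 8.92, 11.9 and 7.09 units in cKO against 239, 92.7 and 231 units in control. The probe was well above background on all 3 control arrays and on none of the 3 cKO arrays. The difference thus has only a bound: control was at least 10.96-fold above cKO. Such a bound sets the brighter group's mean against the lowest well-measured signal of each dim array, or the probe's own value there where that is higher. The measured means were -6.82 ± 0.33 in cKO and -2.68 ± 0.76 in control (SD, n = 3 each), and their difference of -4.15 includes signal at background. With the normexp correction the difference was -0.85 with scaling to the 75th percentile and -1.60 with quantile normalization.

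The 6 arrays lay on 2 slides, with 3 cKO arrays and control replicate 1 on one and control replicates 2 and 3 on the other, and the scans split in the same way. Within the first slide 3 cKO arrays met 1 control array. The differences there were 1.88 for Lsr, 2.20 for F11r, 0.78 for Epcam, 0.88 for Cdh1, 0.31 for Cldn7 and -4.56 for Mst1r. Those of F11r and Mst1r include background signal, since F11r was not well above background on control replicate 1, nor Mst1r on any cKO array. A fit with the slide as a term rests on the same arrays and gave the same differences, and no probe had an adjusted p under 0.05 in either fit, with 1646 at an unadjusted p under 0.05 for the slide term and 1310 within the slide. For Epcam the adjusted p was 0.618 with the slide term, and for Cdh1 it was 0.722. The lone control array is assumed there to vary like the others.

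In a whole culture, fewer cells that carry a transcript and less of it per cell cannot be told apart. Markers of other cell types were therefore read on the same arrays, as signal relative to the 75th percentile summed over each list's brightest probes. Of 8 epithelial keratins, Krt5, Krt8, Krt15, Krt19 and Krt20 were not well above background on any array, and 2, Krt14 and Krt18, had a tested probe. The keratin sum was 0.41, 0.25 and 0.26 in cKO and 0.18, 0.23 and 0.19 in control, without overlap. Krt14, the keratin with the brightest probe, had values of -1.95, -3.92 and -3.60 in cKO and -5.29, -3.13 and -4.58 in control, which overlapped (difference 1.17 ± 0.71 (SE), adjusted p = 0.344 in limma). Both Krt14 and the keratin sum were highest in cKO replicate 1. None of the 8 keratins was well above background on every array, so that the sum and the difference of Krt14 include background signal. The part of such cells in the values of Cdh1 or Epcam was not tested.

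Summed B cell markers were also without overlap, at 76.0, 62.2 and 72.5 in cKO and 43.5, 48.8 and 42.7 in control. They were led by Ighm, the immunoglobulin μ chain, which was higher by 0.64 ± 0.12 (SE) with an adjusted p of 0.099, while Pax5 and Blk were not well above background on any array. Erythroid markers summed to 0.59, 0.57 and 1.19 in cKO and 0.36, 0.47 and 0.29 in control, led by the haemoglobin gene Hbb-b1, with Alas2, Epb4.2 and Rhag at background on every array. T cell markers summed to 330, 350 and 392 in cKO and 323, 317 and 313 in control, led by Cd3d. The sums overlapped between groups for Treg cells (brightest probe Tnfrsf18), myeloid cells (Csf1r), dendritic or Langerhans cells (Xcr1), CD8 T or NK cells (Cd8b1) and endothelial or stromal cells (Col1a2). Those of CD8 T or NK cells were 12.8, 6.49 and 13.7 in cKO and 8.42, 6.55 and 7.09 in control, so that cKO replicates 1 and 3 stood above every control array. In the myeloid list Lyz1, Emr1 and S100a8 were at background on every array, in the dendritic list Itgax, Cd207, Clec9a, Siglech and Cd209a, in the platelet list Pf4, Gp9, Gp1ba, Gp5 and Gp6, in the CD8 T or NK list Klrb1c, and in the endothelial or stromal list Kdr, Tek, Pdgfrb and Dcn. Of the 32 genes tested in the 10 marker lists, 0 had an adjusted p under 0.05 in limma and 12 an unadjusted p under 0.05, beside 0.242% and 23.0% of all tested probes. The part of these cells in the members' values was not tested.

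The other genes of junctions, with those of the epithelial programme, were read from 6 lists with 100 names besides the members. Of these names 94 were on the array and 38 had a tested probe. All are called junction genes in the counts, although the epithelial programme also holds genes such as the protease gene St14. That list gave 5 of the 38 tested genes, of which 2 were higher in cKO without overlap. Of these 38, 11 were higher in cKO without overlap and 2 lower, beside the 15.9% and 20.7% of all tested probes. Of the 11, Pvrl2 passed the filter on dim probes through its cKO arrays alone. None had an adjusted p under 0.05 in limma and 13 had an unadjusted p under 0.05, 11 higher and 2 lower, beside 23.0% of all tested probes. Their median difference was 0.18, against -0.04 over all tested probes, and it was 0.27 without control replicate 2. With the slide as a term 6 of the 38 had an unadjusted p under 0.05, beside 7.39% of all tested probes, and within the first slide 5 had, beside 5.88%. Over all 94 genes without the filter on dim probes, of which 43 were not well above background on any array, the median was -0.04, beside -0.08 over all probes without that filter. Over the 31 genes well above background on every array it was 0.33, beside -0.05 over all such probes.

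Of 20 other claudins on the array, 14 were at background on every array and 2 were tested, Cldn12 (0.50 ± 0.37 (SE), adjusted p = 0.418) and Cldn9 (-0.14 ± 0.17, adjusted p = 0.634). Cldn12 differed by 0.08 without cKO replicate 3, and Cldn9 by 0.19 with the slide as a term. The other 4 were each clear of the background on 1 array and were not tested. The 2 clear on a cKO array were Cldn10, at -5.17, -4.77 and -1.23 in cKO and -6.01, -6.98 and -6.50 in control, and Cldn4, at -4.58, -4.50 and -5.71 against -6.24, -7.05 and -5.88. The 2 clear on a control array were Cldn15, at -5.08, -5.51 and -5.07 in cKO and -4.47, -4.61 and -5.02 in control, and Cldn14, whose groups overlapped. The groups of Cldn10, Cldn4 and Cldn15 did not overlap. Among 10 other membrane proteins of tight junctions, Marveld2, which encodes the tricellulin that angulins recruit, had values of -1.84, -1.32 and -2.91 in cKO and -2.64, -2.57 and -2.89 in control. These overlapped, with a difference of 0.68 ± 0.39 (SE) and an adjusted p of 0.327, and the difference was 0.32 without cKO replicate 2 and 1.12 without cKO replicate 3. Jam2, a relative of JAM-A, differed by -0.21 ± 0.41 with an adjusted p of 0.760. It was well above background on 1 cKO array and 2 control arrays, so that this difference includes background signal. The difference was -0.63 without cKO replicate 1 and 0.15 without cKO replicate 3. Of the 10 genes 7, Cxadr among them, were at background on every array. Ildr1, an angulin like Lsr, was clear of the background on 1 cKO array only and was not tested, with values of -5.62, -4.79 and -4.35 in cKO and -6.0, -6.96 and -6.68 in control.

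Among 19 scaffold and polarity proteins 14 were tested. Of these, 4 were higher in cKO without overlap and 1 was lower, beside 15.9% and 20.7% of all tested probes. Tjp3, which encodes ZO-3, had values of 0.23, 0.43 and 1.33 in cKO and -0.40, -0.52 and -0.92 in control, a difference of 1.28 ± 0.31 (SE) with an adjusted p of 0.129. Magi1, a scaffold with guanylate kinase and PDZ domains, was lower, at -1.32, -1.79 and -2.70 in cKO against -1.0, -1.10 and -0.58 in control (difference -1.04 ± 0.36, adjusted p = 0.183, and -0.66 without cKO replicate 3). The polarity genes with the brightest probes differed little: Scrib by -0.19 ± 0.15, Llgl1 by 0.05 ± 0.12 and Dlg1 by -0.01 ± 0.14. Mpp5 and Pard6a had unadjusted p-values under 0.05 too, at differences of 0.53 and 0.24, and were named after their values were seen.

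Among 15 adherens junction genes on the array 9 were tested. Of these, 3 were higher without overlap and 0 lower, beside 15.9% and 20.7% of all tested probes. Pvrl2, which encodes nectin-2, had values of -3.73, -3.11 and -2.15 in cKO and -5.09, -5.15 and -4.89 in control. It stood clear of the background on 3 cKO arrays and on no control array, and it was at least 4.13-fold above control, with an adjusted p of 0.0966 in limma. It was tested only because of its cKO arrays, so its place in the counts of genes without overlap was fixed by the filter. For the same reason no conclusion is drawn from its adjusted p. Mllt4 encodes afadin, the protein that ties nectins to actin, and had values of 0.55, 0.88 and 1.06 in cKO and 0.08, -0.27 and -0.36 in control (difference 1.01 ± 0.19, adjusted p = 0.0939). The catenins that hold E-cadherin differed by less than their errors, with Ctnna1 at 0.02 ± 0.12 and Ctnnb1 at -0.05 ± 0.09. Epn1, which encodes epsin-1 and is not itself an adherens junction gene, was in the list and among the 9 tested. Its difference was 0.03 ± 0.11. Vcl (vinculin, 0.70) and Pvrl3 (nectin-3, 0.68), which also had unadjusted p-values under 0.05, were named after their values were seen.

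Of 14 desmosome genes 6 were tested, and the desmogleins and desmocollins Dsg1a, Dsg3, Dsc1, Dsc2 and Dsc3 were at background on every array. Pkp2, which encodes the desmosomal plaque protein plakophilin-2, had values of 0.20, 1.22 and 1.85 in cKO and -1.02, -0.82 and -2.43 in control. No value overlapped, and the difference of 2.51 ± 0.57 (SE) had an adjusted p of 0.120. Pkp3, its relative, was tighter at 4.37, 4.35 and 4.33 in cKO and 4.14, 3.99 and 3.84 in control (difference 0.36 ± 0.11, adjusted p = 0.167). Evpl, which encodes the plaque protein envoplakin, was lower, at 0.89, 0.42 and 0.06 in cKO against 1.45, 1.33 and 1.77 in control (difference -1.06 ± 0.24, adjusted p = 0.120), and Perp overlapped at 0.52 ± 0.33 (0.16 without cKO replicate 2).

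**Figure D3:**
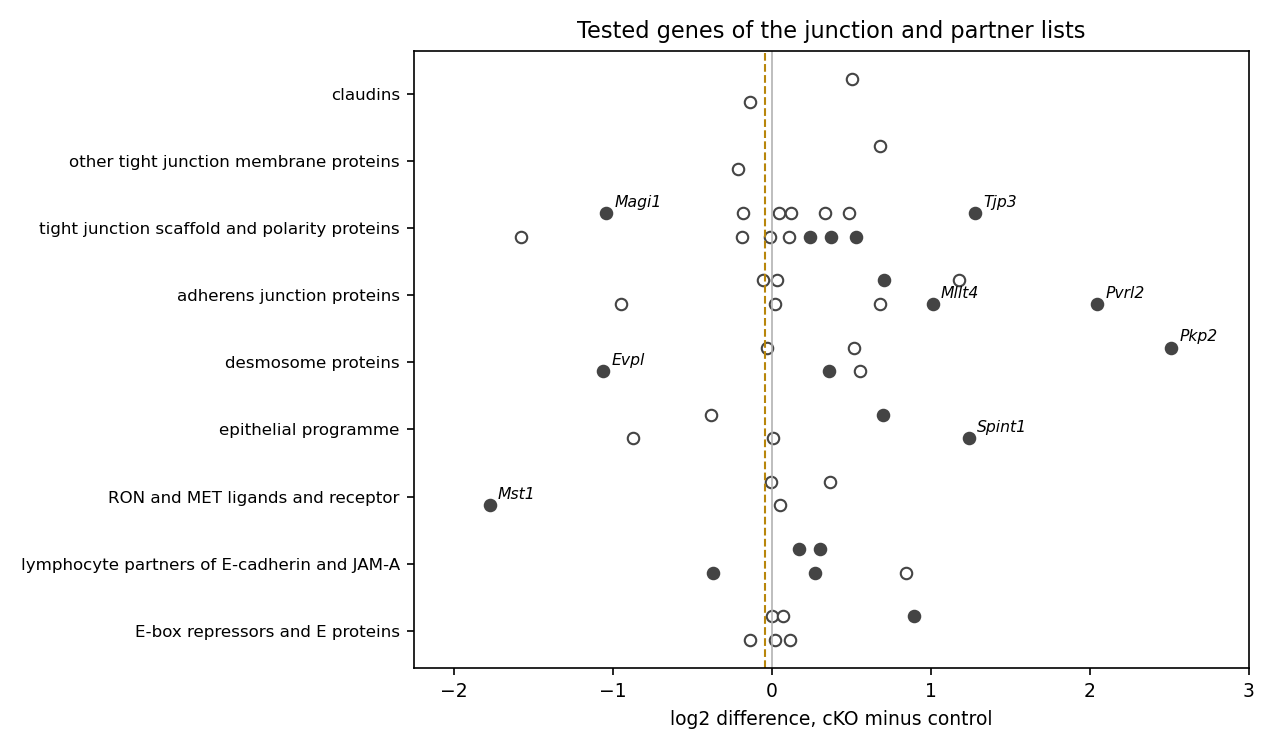
Log2 difference of cKO minus control (x axis) for the tested genes of the 9 lists of junction genes and their partners (y axis), without the members and the marker lists, with filled points where the 3 cKO and 3 control arrays did not overlap and the dashed line at the median of all tested probes. Differences are plotted as measured, with Pkp2 at 2.51. Those of Pvrl2, at 2.05, and Mst1, at -1.78, include signal that was not well above background on 3 control arrays and 2 cKO arrays, respectively.

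Of 16 genes of the epithelial programme on the array 5 were tested, and the factors Grhl2, Elf3 and Esrp1 were at background on every array. The epithelial factor Ovol1, named after its values were seen, was not tested. It had values of -4.57, -3.63 and -2.86 in cKO and -5.99, -6.45 and -6.63 in control, and its signal cleared the background on 2 cKO arrays only. St14 encodes matriptase, a membrane protease that can cleave EpCAM and the pro-form of macrophage-stimulating protein. It had values of 1.54, 1.30 and 1.16 in cKO and 0.85, 0.68 and 0.38 in control (difference 0.70 ± 0.17 (SE), adjusted p = 0.126). Spint1, which encodes its inhibitor HAI-1, had values of -3.27, -2.43 and -2.57 in cKO and -3.64, -4.47 and -3.88 in control (difference 1.24 ± 0.30, adjusted p = 0.128). Grhl1 (-0.39 ± 0.23) and Esrp2 (-0.87 ± 0.59) overlapped between groups, and without cKO replicate 3 they differed by -0.18 and -0.22.

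Mst1, which encodes macrophage-stimulating protein, the ligand of RON, was lower in cKO, as its receptor was. Its values were -5.06, -4.34 and -4.14 in cKO and -2.58, -3.02 and -2.62 in control, without overlap. It was well above background on 1 cKO array and on 3 control arrays, and the difference of -1.78 ± 0.27 (SE) as measured, which includes background signal on 2 cKO arrays, had an adjusted p of 0.0685 in limma. The Mst1 probe (mm9 chr9:107987213-107987272) lies 164587 bases from the Mst1r probe on the same chromosome. The proteases Hpn and Hgfac, which can activate the ligand, differed by 0.05 ± 0.31 and 0.36 ± 0.36 and overlapped between groups. Without 1 array the difference of Hpn ran from -0.13 to 0.39 and that of Hgfac from 0.03 to 0.63. Met, which encodes the related receptor of hepatocyte growth factor, was nearly level, at -3.56, -3.55 and -3.54 in cKO and -3.68, -3.42 and -3.54 in control (difference -0.004 ± 0.11, adjusted p = 0.986), and Hgf was well above background on 1 cKO array only.

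**Figure D4:**
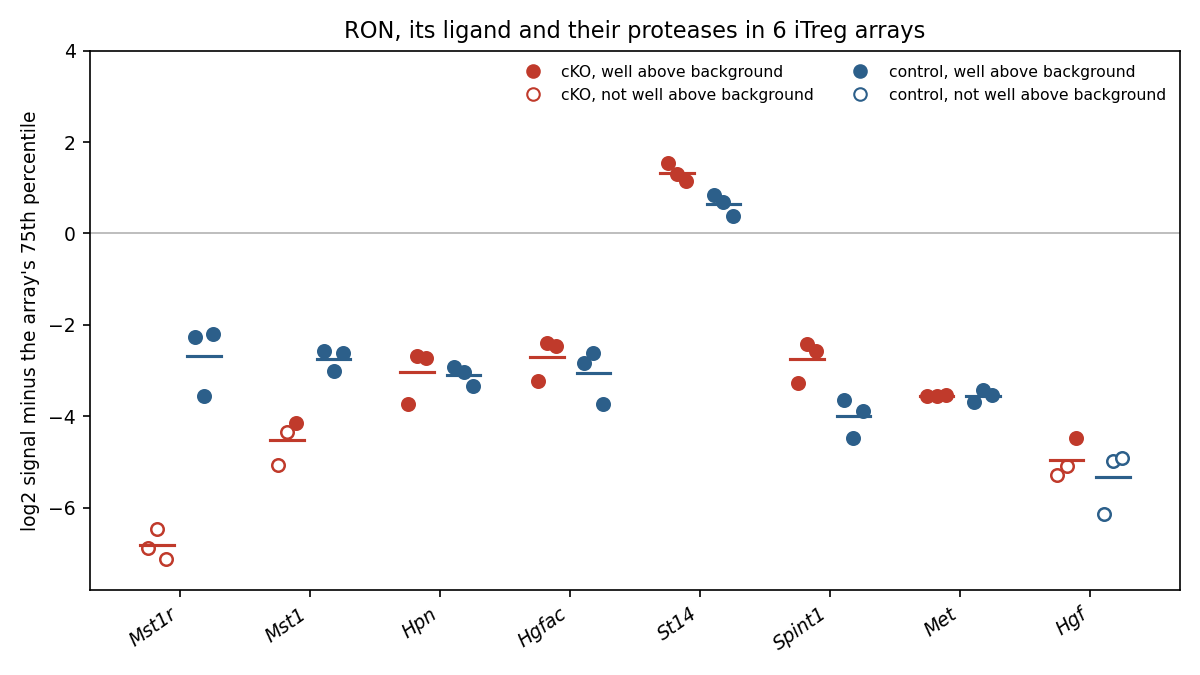
Log2 signal minus the 75th percentile of the array (y axis) for Mst1r, its ligand Mst1, the proteases Hpn, Hgfac and St14, the inhibitor Spint1, and Met with Hgf (x axis), where each point is 1 array, bars are group means and open points are not well above background. Mst1r and Mst1 lie lower on all 3 cKO arrays, St14 and Spint1 lie higher, and Met lies at the same level in both groups.

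The T-cell integrins that bind E-cadherin and JAM-A were well measured. Itgae and Itgb7 encode the chains of CD103 with β7, which binds E-cadherin. Itgae had values of 3.31, 3.26 and 3.17 in cKO and 3.19, 2.57 and 1.45 in control. The control arrays spread widely. Control replicate 1, the only control array on the slide of the cKO arrays, reached the cKO values, and control replicate 3 was the lowest. The difference of Itgae was 0.85 ± 0.42 (SE) with an adjusted p of 0.269 in limma. Itgb7 differed by 0.17 ± 0.10 with an adjusted p of 0.326. Itgal and Itgb2 encode LFA-1, the partner of JAM-A, and were higher in cKO without overlap by 0.27 ± 0.10 and 0.30 ± 0.09, with adjusted p-values of 0.190 and 0.161. Itgae was named after its values were seen. In this list 3 of 5 tested genes were higher without overlap and 1, Itgb1, was lower at -0.37. Itgb1 had values of 0.44, 0.32 and -0.23 in cKO and 0.52, 0.49 and 0.63 in control, with a gap of 0.045 between the groups. None of the 5 had an adjusted p under 0.05 in limma, and 2 had an unadjusted p under 0.05. Over all tested probes 15.9% were higher without overlap, 20.7% lower, and 23.0% had an unadjusted p under 0.05.

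E-box repressors such as ZEB and SNAIL proteins silence E-cadherin and other junction genes in many cell types by binding the letters CAGGTG or their reverse complement CACCTG. Of 10 such repressors and E proteins 6 were tested. Zeb1 was level, at 1.80, 1.65 and 2.19 in cKO and 1.88, 1.83 and 1.92 in control (difference 0.003 ± 0.16, adjusted p = 0.992), as were the E proteins Tcf3 (0.02 ± 0.17) and Tcf12 (-0.14 ± 0.17). Zeb2, named after its values were seen, was the only one of these 6 with groups that did not overlap. It was at -3.39, -2.70 and -3.10 in cKO and -4.12, -3.81 and -3.94 in control (difference 0.89 ± 0.20, adjusted p = 0.119). Over all tested probes 15.9% were higher and 20.7% lower without overlap. Snai3, which was not tested, also did not overlap, at -4.77, -4.13 and -3.95 in cKO and -4.83, -4.79 and -5.28 in control, with 1 cKO array and no control array clear of the background.

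The promoters of members that differed without overlap are shown because these letters can be read in them, from 250 bases upstream to the start of the gene in RefSeq (GRCm38.p6), with each match on either strand in capitals. The table holds 8 of the 9 members, all but Cdh1.
Lsr (chr7:30973470-30973719, minus strand): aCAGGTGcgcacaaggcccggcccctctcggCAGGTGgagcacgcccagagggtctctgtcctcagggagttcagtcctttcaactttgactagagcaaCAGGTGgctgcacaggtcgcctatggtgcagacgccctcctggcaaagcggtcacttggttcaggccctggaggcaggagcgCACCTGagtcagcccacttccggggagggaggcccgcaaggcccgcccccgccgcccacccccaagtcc
F11r (chr1:171437311-171437560, plus strand): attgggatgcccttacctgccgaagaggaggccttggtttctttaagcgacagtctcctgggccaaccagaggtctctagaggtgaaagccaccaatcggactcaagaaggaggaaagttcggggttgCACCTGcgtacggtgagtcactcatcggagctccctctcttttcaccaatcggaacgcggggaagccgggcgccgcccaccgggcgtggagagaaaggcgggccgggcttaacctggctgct
Epcam (chr17:87635729-87635978, plus strand): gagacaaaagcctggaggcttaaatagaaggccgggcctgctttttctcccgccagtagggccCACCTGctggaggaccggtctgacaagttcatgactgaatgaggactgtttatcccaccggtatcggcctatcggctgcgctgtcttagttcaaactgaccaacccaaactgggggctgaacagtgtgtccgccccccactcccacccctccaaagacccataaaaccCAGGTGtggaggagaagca
Mst1r (chr9:107906639-107906888, plus strand): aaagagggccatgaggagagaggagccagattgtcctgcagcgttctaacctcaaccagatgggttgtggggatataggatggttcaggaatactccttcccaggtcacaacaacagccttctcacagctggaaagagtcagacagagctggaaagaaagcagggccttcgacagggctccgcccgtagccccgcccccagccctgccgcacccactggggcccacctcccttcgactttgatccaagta
The Lsr window holds 4 matches, which begin at -249, -219, -151 and -69 from the start, the Epcam window holds 2, at -187 and -19, and the F11r window holds 1, at -122. The Mst1r window shown and the other Mst1r window in the table hold 0. Among the members that did not differ or were not tested, Cldn7 and Ocln each have a window with 2 matches and a window with 0, and Tjp1 and Jup hold 0. Of all 32851 windows of 250 bases in the table, 17.2% hold at least 1 match, 2.06% at least 2 and 0.0426% at least 4. A match is a run of letters, and binding was not measured.

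The genes with patterns most like those of Lsr, F11r and Mst1r were found by Pearson correlation over the 6 arrays among 14216 genes, each at its brightest tested probe. Since the arrays fall into 2 groups, such a correlation is high for any gene that differs between the groups with little spread, and it is given as a description. Nearest to Lsr were Naprt1 (r = 0.998), an enzyme of NAD synthesis, Wbp2 (r = 0.998) and March9 (r = 0.998), a membrane ubiquitin ligase, which were higher in cKO by 1.58, 0.42 and 1.05. Nearest to F11r were Ap4b1 (r = 0.998), Pacsin3 (r = 0.997) and Fam210b (r = 0.997), higher by 0.32, 1.39 and 1.37. Mst1r was not well above background on any cKO array, so that its cKO values in these correlations are background signal. Nearest to Mst1r were ENSMUST00000144434 (r = 0.997), the aryl hydrocarbon receptor target Cyp1a1 (r = 0.993) and Pou2af1 (r = 0.991), a coactivator of octamer-binding factors. Pou2af1 had values of -2.22, -2.0 and -2.11 in cKO and 0.03, -0.35 and 0.50 in control. Cyp1a1 was well above background on the control arrays only, at least 2.387-fold above cKO.

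The direction of Lsr, F11r, Epcam, Cdh1 and Mst1r was the same under every processing alternative run, whereas that of Cldn7 turned under 4. For F11r and Mst1r these were 19 of the 20, since neither probe was well above background on every array. Lsr, F11r and Mst1r were selected on their values in these same arrays, so that their kept direction is a description only. Lsr lay between 1.82 and 2.20 and Cdh1 between 0.70 and 1.29. Mst1r lay between -4.59 and -0.85, the latter with the normexp correction and the 75th percentile.

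**Figure D5:**
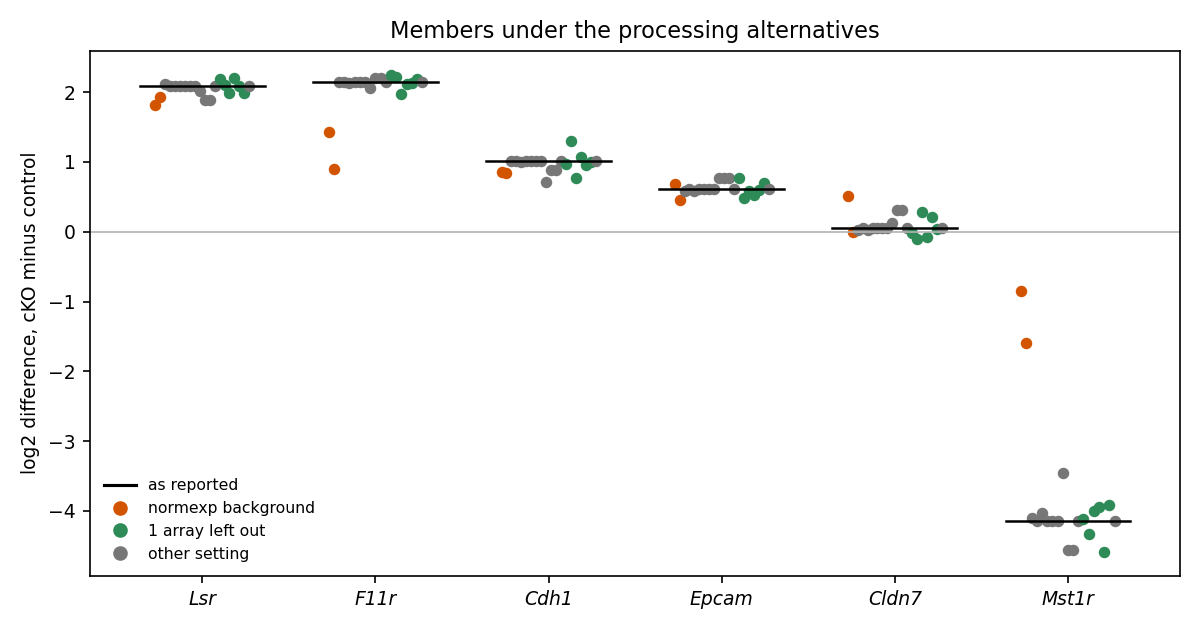
Log2 difference of cKO minus control (y axis) for 6 members (x axis) as reported (black line) and under each processing alternative (points), with both normexp corrections in orange and fits without 1 array in green. All points of Lsr, F11r, Cdh1 and Epcam lie above 0, those of Cldn7 lie on both sides of it, and the normexp points of Mst1r and F11r lie nearest to 0 for these genes.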

How the data were processed

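The members and gene lists were chosen with earlier results of these data known. Splenic iTreg cells of 3 cKO and 3 control mice were measured on Agilent one-colour arrays, and each replicate was a separate mouse per the series' design text. The deposited spot intensities were background-subtracted by the authors with Agilent Feature Extraction (version 9.1 per the labels, 10.7.3.1 per the file headers), are linear and were not normalized between arrays. The authors also deposited a log2 table of the same probes, used as an alternative, with column medians from 6.146 to 6.147. It correlated with the array signal at r of 0.998 or more, and its scaling is not given in the sources used here.

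From 43379 non-control spots per array, 123 to 140 outlier spots were dropped, log2 signals were centred on the 75th percentile (987 to 1148 units), and spots of a probe were averaged. Between 49.3% and 57.7% of spots were well above background, 0 were saturated, and 6 arrays limit the precision. Groups were compared with limma 3.58.1 (R 4.3.3, lmFit and eBayes) over 22281 probes with Benjamini-Hochberg adjustment at 0.05. Where a gene had several probes, the brightest tested one was used. Intervals are 95% intervals of that fit. Named were the 9 members, the 3 brightest genes of each pathway list, list genes with an adjusted p under 0.05 or a difference of at least 1 without overlap at a tested probe, the brightest gene of each marker list and the 3 genes most like each selected member. Gene names and mm9 positions are the array's own, given for 40827 probes, and promoters and the miRNA are from RefSeq. Fits were tested on simulated data. Same-numbered arrays of the groups deviated from their group means with correlations of -0.14, 0.01 and -0.19, and were not treated as pairs. Tables and plots used Python 3.11.15, pandas 2.3.3, numpy 2.4.6 and matplotlib 3.10.9. One marker gene and the summed level of its list are not reported here.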

Additional observations from a re-analysis of the deposited data

How the results depend on the processing

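As reported, 54 probes had an adjusted p under 0.05. This count was 0 with the normexp correction and the 75th percentile (1659 at an unadjusted p under 0.05), 115 with normexp and quantile normalization, 28 with quantile normalization, 28 in the authors' log2 table, 0 with no filter on dim probes (4705 unadjusted), 174 where only probes clear of the background on every array were kept, 0 with the methods' t-test (4018 unadjusted), 105 with a trended and robust eBayes, 2205 with array weights (0.173 for cKO replicate 3 to 5.05 for control replicate 2), 0 with the slide as a term and 0 within slide 1. With the replicate block it was 0 (3627 unadjusted), and the block changed no call of a member. Leaving out 1 array gave 0 to 1, and the 1 was without control replicate 1. The cause was not tested. Adjusted p-values stayed above 0.05 for Cdh1 in all 20 alternatives (0.0685 to 0.888) and for Epcam in all but array weights (0.0386 to 0.850). With array weights 12 of the 38 junction genes were called, beside 2205 of all 22281 tested probes.

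The normexp correction moved Lsr to 1.82, F11r to 1.43 and Mst1r to -0.85 with the 75th percentile, and F11r to 0.90 and Mst1r to -1.60 with quantile normalization, and the cause was not tested. With the 75th percentile the correction moved the median of all tested probes to 0.11 and that of the junction genes to 0.36. With quantile normalization these medians were -0.02 and 0.16. The junction median was -0.039 with no filter on dim probes and 0.33 where only probes clear of the background on every array were kept. Array weights gave -3.46 for Mst1r and 0.77 for Epcam. Cldn7 was -0.0059 with normexp and quantile normalization, -0.02 without cKO replicate 1, -0.10 without cKO replicate 2 and -0.07 without control replicate 1, at most 0.28 without 1 array, 0.51 with normexp and the 75th percentile, and 0.31 with the slide as a term. Of the 32 named and tested genes of the lists, 10 changed sign without 1 array and 10 others moved by over 1.5 times, among them Magi1, which was 1 of the 13 whose groups did not overlap. With the slide as a term 5 changed sign, none of them among the 13. The scan was not run apart from the slide, because both split the arrays alike. Signal over background kept Ocln, Tjp1 and Jup from being tested, since Ocln was at background on every array and Tjp1 and Jup on all but 1.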

Other observations

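The genes beside the members on their chromosomes were read as well, a choice made after the members' values were seen. Of the 36 protein-coding neighbours in RefSeq order, 2 on each side of every member, 35 were on the array and 22 had a tested probe, with a median difference of -0.14. Of these, 2 were higher in cKO without overlap and 4 were lower, none had an adjusted p under 0.05 in limma and 3 had an unadjusted p under 0.05, beside 15.9% higher, 20.7% lower and 23.0% at an unadjusted p under 0.05 over all tested probes. These 3 were Slc2a4, a glucose transporter beside Cldn7, higher by 1.10 ± 0.29 (SE) as measured, Alyref2 beside F11r, with a difference of -0.57 ± 0.23, and Fxyd5. Slc2a4 signal was clear of the background in 2 cKO mice and in 1 control mouse only, so that its difference includes background signal. Fxyd5, an ion transport regulator beside Lsr, was higher by 0.37 ± 0.15 (SE), and Usf2, a transcription factor on its other side, had values of 1.30, 1.39 and 1.48 in cKO and 1.52, 1.53 and 1.54 in control.

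Among Treg markers, Gpr83, a G protein-coupled receptor, had values of 2.77, 2.52 and 1.43 in cKO and 4.03, 4.26 and 4.44 in control (difference -2.0 ± 0.36 (SE), adjusted p = 0.0897 in limma). Ctla4, an inhibitory receptor, went the other way, at 0.57, 0.95 and 1.16 in cKO and 0.24, 0.11 and -0.47 in control (difference 0.94 ± 0.24, adjusted p = 0.135). Both were named after their values were seen.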
